A study of Arabidopsis thaliana with 8 samples.

Results

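ZIP3, ZIP5 and FRO5 are Arabidopsis thaliana genes for the uptake of zinc and copper, each with a nearby peak of the iron (Fe) response factor URI, a stretch of chromosome at which its signal stands out. URI, also known as bHLH121, belongs to the basic helix-loop-helix family of transcription factors. Where it sits on the chromosomes was read by ChIP-seq, in which an antibody recovers the DNA bound by a protein and this DNA is sequenced. The members were the peaks of the authors' table that lay within 1500 bp of ZIP3 (AT2G32270), ZIP5 (AT1G05300) or FRO5 (AT5G23990). This gave 3 peaks out of 2366, 1 for each gene. That these genes have a peak was known when they were chosen, so their having a peak is not a finding.

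All material came from roots of the uri complementation line, a uri mutant that carries a working copy of the gene, so every group carries the same mutation and the same complementing copy. The promoter, the tag and the number of independent lines behind that copy are not stated in the labels. The Fe-deficient group held 3 URI ChIP libraries and the Fe-sufficient group 3, each after 72 h of its treatment. Each condition had 1 further IgG control library, which is not analysed here. The authors' deposited table gives only the mean of each condition, as a log2 of normalised reads per peak, and for the difference a p-value and an adjusted one, the false discovery rate (FDR). Spread between libraries and depth per library are thus unknown, and the error of a change is given through its deposited p-value. Whether replicate libraries were grown separately is not stated in the labels, and the spread behind the p-values may therefore be technical. Changes are log2 values of Fe deficiency minus Fe sufficiency.

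ZIP proteins carry divalent metal ions across membranes into the cytosol. ZIP3 and ZIP5 encode members of this family whose transcripts are known to increase in zinc-starved plants under the factors bZIP19 and bZIP23. IRT1, the main Fe transporter of the root surface, is a ZIP protein that also takes up zinc. FRO proteins are membrane reductases: FRO2 reduces ferric chelates before Fe uptake, while FRO5, with its neighbour FRO4, is known for reducing copper at the root surface under copper starvation, downstream of the factor SPL7.

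At none of these genes was URI signal shown to differ between the Fe conditions. The ZIP3 peak had the only deposited p-value under 0.05, with a level 2.57-fold lower under deficiency, while ZIP5 and FRO5 had nearly equal values in both conditions. In mean signal over both conditions ZIP5 stood above the median peak, and ZIP3 and FRO5 below it. The authors' deposited table puts this signal at 9.38 reads for ZIP3, 15.3 for ZIP5 and 9.0 for FRO5, against 12.2 for the median peak. Of all peaks, 27.7% lay below ZIP3, 66.1% below ZIP5 and 24.1% below FRO5. No peak of ZIP3, ZIP5 or FRO5 had an FDR under 0.05, although only the ZIP5 peak had entered the deposited adjustment. At that threshold the authors' deposited table calls 1.98% of the 1311 peaks with an adjusted p-value higher under deficiency and 0.0763% lower.

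The ZIP3 peak (chromosome 2, 13702485 to 13703010) was 525 bp wide. In the authors' deposited table it had 5.24 reads under Fe deficiency and 13.5 reads with sufficient Fe. These are 2.39 and 3.75 on the log2 scale, a change of -1.36. The deposited p-value was 0.0148, and the approximate 95% interval that this p-value implies for the change ran from -2.45 to -0.27. Under deficiency the peak was among the weakest, with 5.11% of all peaks below it and a level 0.504 times that of the median peak. With sufficient Fe it stood at 0.953 times the median peak, with 46.0% of peaks below it.

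The deposited FDR of the ZIP3 peak was 1, as it was in the authors' deposited table for 1055 peaks in all, whose mean signal was at most 11.5 reads. Adjusted over all 2366 peaks by Benjamini-Hochberg, the deposited p-value of ZIP3 gave 0.312. Before adjustment, 10.1% of all peaks had a deposited p-value under 0.05 with a lower level under deficiency, as ZIP3 did, and 3.55% had one with a higher level. Among these 1055 peaks, 77 shared the combination of a deposited FDR of 1, a p-value under 0.05 and a lower level. By size, 36 of all peaks had a change of -1.36 or less in the authors' deposited table, ZIP3 included.

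The ZIP5 peak (chromosome 1, 1548205 to 1549157) was the widest of these peaks at 952 bp. It had 14.6 reads under Fe deficiency and 16.0 with sufficient Fe in the authors' deposited table, a log2 change of -0.13 (p = 0.706, FDR 0.786). ZIP5 was the only one of the 3 genes whose peak entered the deposited FDR adjustment. Its level was 1.40 times that of the median peak under deficiency and 1.13 times with sufficient Fe, so 72.2% and 60.1% of peaks lay below it. With the error taken from peaks of like signal, the approximate 95% interval of the change ran from -1.01 to 0.75. This interval included 0, and neither a fall nor a rise within these bounds was excluded.

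The FRO5 peak (chromosome 5, 8109375 to 8109883) was 508 bp wide. The authors' deposited table gave 9.19 reads under Fe deficiency and 8.75 with sufficient Fe, a log2 change of 0.06 with the largest p-value of that table (p = 0.999, FDR 1). With sufficient Fe it was a weak peak, at 0.620 times the median peak with 15.1% of peaks below it. Under deficiency it stood closer to the middle, at 0.883 times the median peak with 40.8% below it. The approximate 95% interval of the change, with its error taken in the same way, ran from -1.03 to 1.15, so the change was bounded only loosely.

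**Figure D1:**
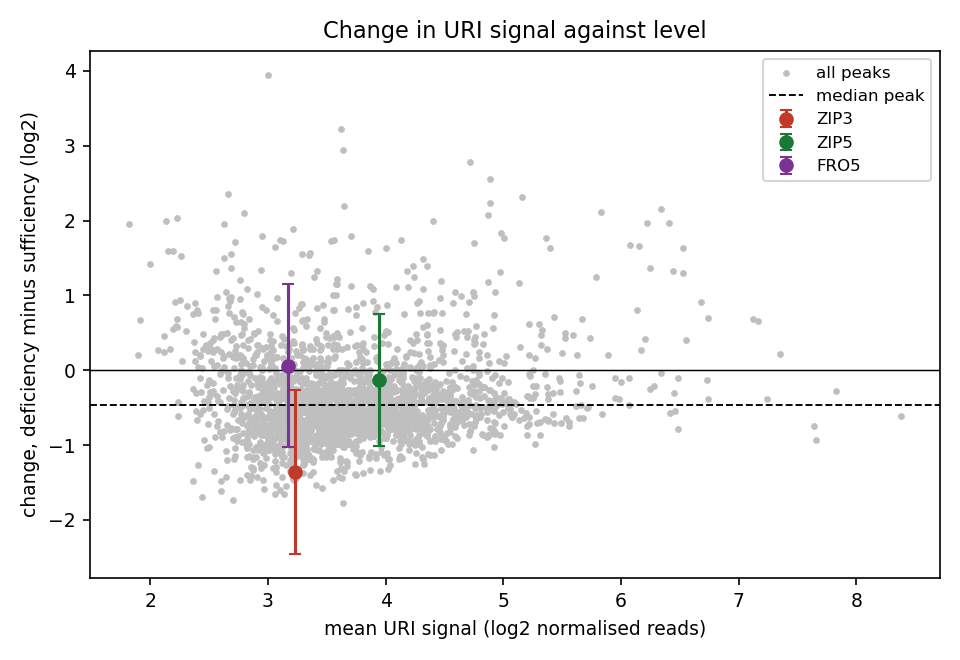
Change in URI signal (log2, deficiency minus sufficiency) against mean signal (log2 normalised reads) for all 2366 peaks in grey, with ZIP3, ZIP5 and FRO5 in colour. Bars are approximate 95% intervals, with the error implied by the deposited p-value at ZIP3 and by those of peaks of like signal at ZIP5 and FRO5, and the dashed line is the median change of -0.46. ZIP3 lies at -1.36, near the lower edge of the cloud, and ZIP5 and FRO5 lie near 0, above the dashed line.

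The median peak itself had a lower value under deficiency, with 10.4 reads against 14.1 with sufficient Fe and a median log2 change of -0.46 in the authors' deposited table. Read against this median peak, ZIP3 had a change of -0.90, with an approximate 95% interval of -1.99 to 0.19. ZIP5 had one of 0.33 (-0.55 to 1.21) and FRO5 one of 0.52 (-0.57 to 1.61). The sign of ZIP5 thus turned, ZIP3 stayed below 0, and each of these intervals included 0. After this recentring 4.81% of the 1311 peaks were called higher and 0% lower at an FDR of 0.05, and the ZIP5 peak, the only one of the 3 in that set, had an FDR of 0.99.

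Peaks of like strength showed the same lean. Of the 100 peaks nearest in mean signal to each gene's peak, 86 had a lower value under deficiency around ZIP3, 87 around ZIP5 and 84 around FRO5, with median changes of -0.53, -0.53 and -0.56. Within its set, ZIP3 had 3 peaks with a change at or below its own. ZIP5 had 82 and FRO5 had 88 of 100 at or below theirs. ZIP3 was therefore low, and ZIP5 and FRO5 were in the upper part of the range, among peaks of their own strength. These ranks describe the table and carry no test.

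**Figure D2:**
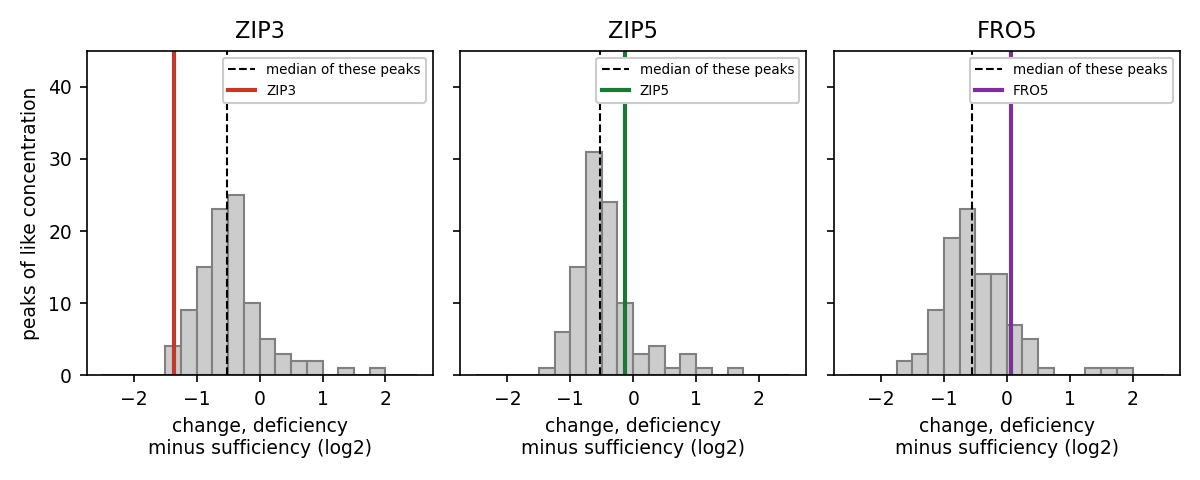
Histograms of the change in URI signal (log2, deficiency minus sufficiency; number of peaks on the vertical axis) for the 100 peaks nearest in mean signal to the ZIP3, ZIP5 and FRO5 peaks. The coloured line is the named peak and the dashed line the median of its 100 peaks: ZIP3 at -1.36 lies left of a median of -0.53, ZIP5 at -0.13 right of -0.53 and FRO5 at 0.06 right of -0.56.

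The order of the genes depended on the Fe condition. Under deficiency ZIP5 had the highest level, FRO5 came next and ZIP3 was lowest, at 14.6, 9.19 and 5.24 reads in the authors' deposited table. With sufficient Fe ZIP5 was again highest at 16.0 reads, but ZIP3 at 13.5 stood above FRO5 at 8.75 in the authors' deposited table. The table holds no spread by condition, so neighbours in these orders were not tested, nor was the difference between the change of ZIP3 and the others. A level in reads is a sum over the width of the peak. Per kilobase of peak, the mean over both conditions was 17.9 reads for ZIP3, 16.1 for ZIP5 and 17.7 for FRO5, against 16.7 for the median peak. The 3 peaks thus lay within a narrow range of mean density close to the median. This mean hides the difference between conditions at ZIP3, and density was not computed for each condition.

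No member peak overlapped a protein-coding gene, a property shared by 920 of all peaks (38.9%). The ZIP5 peak came within 500 bp of its gene, the FRO5 peak within 1000 bp and the ZIP3 peak only within 1500 bp. ZIP3 was the single protein-coding gene within 1500 bp of its peak. The ZIP5 peak also had AT1G05310 within that distance, on its other side. For FRO5, the midpoint of the peak was nearer to AT5G24000 than to FRO5. AT5G24000 is in none of the lists used here. FRO4, the adjacent reductase gene, had no peak within 1500 bp. Gene strands are not in the annotation used, so promoter and gene end are not told apart.

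Other peaks were far from those of ZIP5 and FRO5 and less so from that of ZIP3. The nearest other peaks lay 11.7 kb and 62.5 kb away from the ZIP3 peak on its lower and higher coordinate sides, 43.4 kb and 164 kb from the ZIP5 peak, and 60.7 kb and 36.4 kb from the FRO5 peak. The median peak had another within 7.41 kb. Of all peaks, 59.6% had a closer neighbour than ZIP3 did, 87.5% a closer one than ZIP5 and 83.9% a closer one than FRO5.

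Peaks on either side of ZIP3 had changes closer to 0 than ZIP3 in the authors' deposited table. Those on the lower coordinate side were, in the authors' deposited table, nearest to AT2G32150 (8.28 reads under deficiency against 11.6 with sufficient Fe, p = 0.367) and AT2G32240 (14.9 against 17.8, p = 0.532). On the higher side they were nearest to AT2G32415 (9.78 against 13.1, p = 0.381) and RLP22 (9.38 against 14.0, p = 0.237), again in the authors' deposited table. Around ZIP5 all 4 neighbours had a change further below 0 than ZIP5, in the authors' deposited table -1.09 at PFA-DSP1 (p = 0.0172) and -1.19 at GLR3.4 (p = 0.0193) on the lower side. The higher side had -0.33 at AT1G05700 (p = 0.42) and -0.62 at AT1G05805 (p = 0.343) in the authors' deposited table. ZIP5 had the highest deficiency level of the 7 peaks within 200 kb, at 3.87 on the log2 scale against 3.86 for the next. With sufficient Fe, 3 of these peaks stood above ZIP5.

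The FRO5 peak had neighbours of mixed sign. The authors' deposited table gave 0.67 at AT5G23460 (p = 0.298) and -0.39 at AT5G23870 (p = 0.411) on the lower side, and -0.57 at CHIA (p = 0.205) and -0.34 at AT5G24130 (p = 0.462) on the higher side. Of the 9 peaks within 200 kb, FRO5 included, 7 stood above FRO5 under deficiency and 7 with sufficient Fe. None of the 12 neighbouring peaks described had a deposited FDR under 0.05, though several lay outside the deposited adjustment and could not have been called. Such calls are rare, at 1.98% of the 1311 adjusted peaks for higher and 0.0763% for lower. Their absence is therefore not a result about these neighbours.

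**Figure D3:**
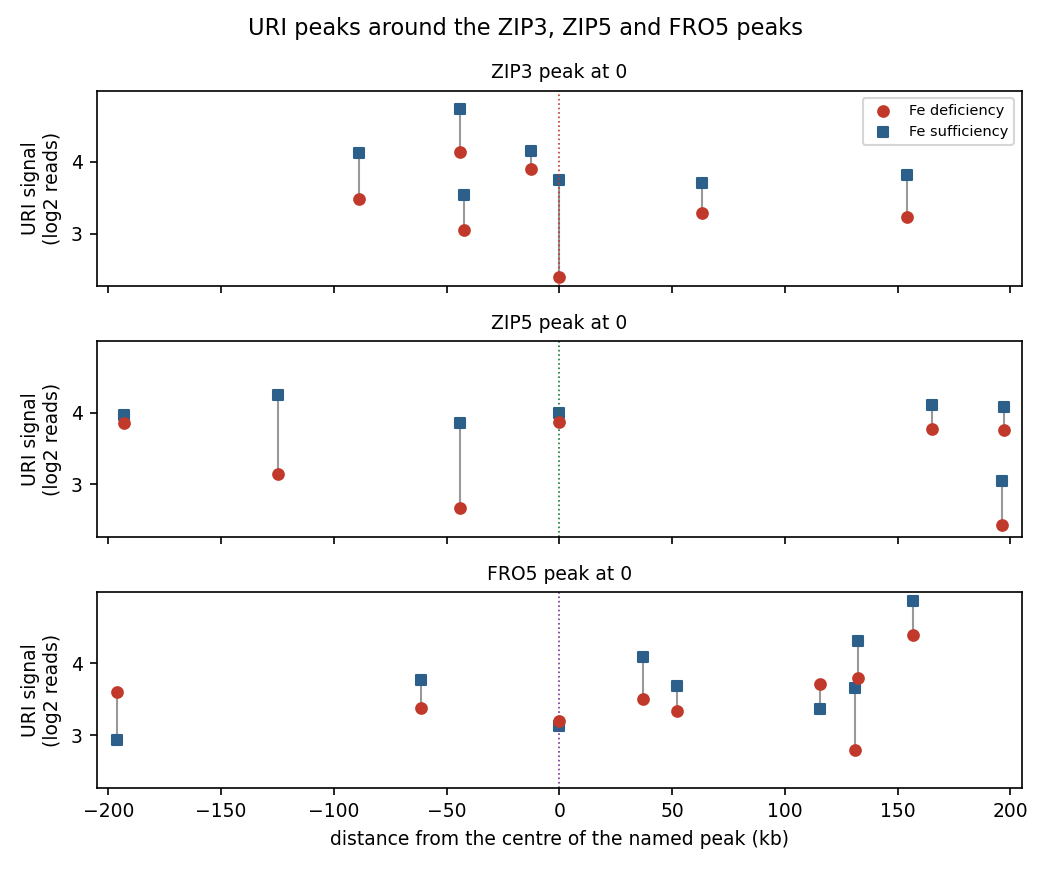
URI signal (log2 normalised reads) of every peak within 200 kb of the ZIP3, ZIP5 and FRO5 peaks, by distance from the centre of the named peak in kb. Circles are Fe deficiency and squares Fe sufficiency. The ZIP3 peak has the lowest circle of its panel at 2.39. The ZIP5 peak has the highest circle of its panel at 3.87, just above another at 3.86. The circle and square of FRO5 nearly coincide at 3.2 and 3.13.

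The peaks most like each member in both condition levels lay elsewhere in the genome, except for the peak by TUA4 among those of ZIP5. The TUA4 peak stood at -192.9 kb from the centre of the ZIP5 peak, within the stretch drawn around ZIP5. By distance in the pair of log2 levels, the 5 nearest to ZIP3 lay by AT4G04960, DMR6, CYP72A14, AT1G64460 and PLDGAMMA1, at distances of 0.0361 to 0.0806. Their changes in the authors' deposited table ran from -1.45 to -1.25, with p-values of 0.0118 to 0.027 and an FDR of 1 for each. Because these peaks were picked by both levels, changes close to that of ZIP3 follow from the choice. The 5 nearest to ZIP5 lay by AT1G73390, DIP2, TUA4, CEJ1 and BZIP53 (distances of 0.0283 to 0.0412), and those nearest to FRO5 by tny, AT1G80440, AT1G52540, AT2G39270 and NodGS (0.01 to 0.0539). The zinc, copper, ZIP and FRO lists had no gene within 1500 bp of these 15 peaks. Those lists cover few peaks, namely 4, 4, 7 and 4 of the 2366, so this absence is not a finding.

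Within the ZIP family the peak of the Fe transporter gene IRT1 was called between the conditions, and those of ZIP3 and ZIP5 were not. Of the 15 genes of the ZIP family, 7 had a peak within 1500 bp, on 7 peaks, whereas 11.8% of all 27444 protein-coding genes had one. The list was chosen with earlier results known, so this share carries no test. Of these 7 peaks, 5 were in the deposited adjustment. Among those 5, 1 was higher under deficiency at a deposited FDR under 0.05 and 0 were lower. Of the 1311 adjusted peaks, 1.98% and 0.0763% were. The median change of the 7 peaks was -0.13, against -0.46 over all peaks. The called peak is the one shared by IRT1 and the Fe transporter gene IRT2, with 133 reads under deficiency and 29.7 with sufficient Fe in the authors' deposited table (FDR 4.24e-11).

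IRT3, a zinc and Fe transporter gene, had a pair of peaks. The stronger lay beside the gene, with its midpoint nearest to the ferredoxin gene FED A, and had 40.5 reads under deficiency against 17.9 with sufficient Fe in the authors' deposited table (change 1.18, p = 0.00292, FDR 0.0991). Relative to the median peak its change was 1.64, with an FDR of 0.00154, so its call depended on the scaling. The weaker peak overlapped IRT3 and had 9.71 and 7.62 reads in the authors' deposited table (change 0.34, p = 0.617). In contrast, ZIP2, for a root metal transporter, had 12.6 reads under deficiency and 22.3 with sufficient Fe in the authors' deposited table (change -0.84, p = 0.0406, FDR 0.268). That peak did not overlap ZIP2, and its midpoint was nearer to another gene. The change of ZIP2 relative to the median peak was -0.38, with an FDR of 0.99. ZIP12 had 15.1 and 19.6 reads in the authors' deposited table (change -0.37, FDR 0.519), and its peak was nearest to AGL42. The sign of ZIP12 turned relative to the median peak, to 0.09. ZIP1, ZIP4, ZIP6, ZIP7, ZIP8, ZIP9, ZIP10 and ZIP11 had no peak within 1500 bp.

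**Figure D4:**
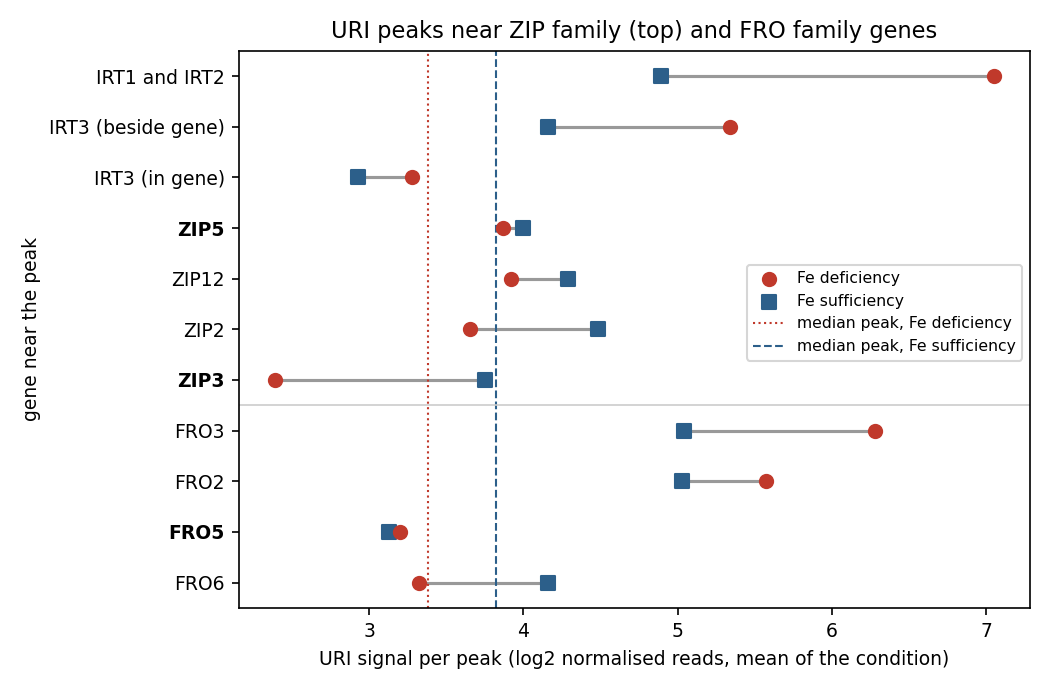
URI signal per peak (log2 normalised reads, mean of the condition) at Fe deficiency (circles) and Fe sufficiency (squares), for the 7 peaks near ZIP family genes above the grey line and the 4 near FRO family genes below it. Vertical lines mark the median peak of each condition, at 3.38 and 3.82. Circles lie right of squares for IRT1, IRT3, FRO3, FRO2 and FRO5, and left of them for ZIP3, ZIP5, ZIP12, ZIP2 and FRO6, of which ZIP5 and ZIP12 turn to values above 0 relative to the median peak.

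Of the 8 FRO genes, 4 (50.0%) had a peak, beside 11.8% of all protein-coding genes, and FRO5 had the weakest mean signal of these. This list, which includes FRO5, was chosen with earlier results known, so the share carries no test. FRO3, a reductase gene of the Fe response, had 77.7 reads under deficiency and 32.9 with sufficient Fe in the authors' deposited table (FDR 0.0094), and FRO2 had 47.5 and 32.7 (FDR 0.393), near a peak that did not overlap it. FRO6, which encodes a reductase of green tissues, had 9.99 and 17.9 reads in the authors' deposited table (change -0.84, p = 0.0964). Of the 4 peaks, 3 were in the deposited adjustment. Among those 3, 1 was called higher and 0 lower, where 1.98% and 0.0763% of the 1311 adjusted peaks were. The median change of the 4 peaks was 0.30, against -0.46 over all peaks. FRO1, FRO4, FRO7 and FRO8 had no peak within 1500 bp.

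Among 13 further genes of the zinc response, 4 (30.8%) had a peak, beside 11.8% of all protein-coding genes. As with the ZIP list, this share carries no test. Of these 4 peaks, all in the deposited adjustment, 1 was called higher and 0 lower, where 1.98% and 0.0763% of the 1311 adjusted peaks were. Their median change was -0.50, against -0.46 over all peaks. The called peak was that of ZIF1, a vacuolar nicotianamine transporter gene, with 124 reads under deficiency and 49.5 with sufficient Fe in the authors' deposited table (FDR 0.000708). The zinc regulator bZIP19 had a peak nearby, with 19.3 and 27.7 reads in the authors' deposited table (change -0.52, FDR 0.394). Its relative bZIP24, known for salt stress, had 24.8 and 34.5 reads (change -0.48, FDR 0.382 in the authors' deposited table). PCR2, a zinc efflux gene, had 12.7 and 25.3 reads in the authors' deposited table (change -1.0, p = 0.0103, FDR 0.183). Its change relative to the median peak was -0.54, with an FDR of 0.978. The bZIP19 and PCR2 peaks did not overlap these genes, and their midpoints were nearer to other genes. The regulator bZIP23, the pumps HMA2, HMA3 and HMA4, the zinc carrier genes ZAT, MTPA1 and MTPA2, and the nicotianamine synthase genes NAS2 and NAS4 had no peak within 1500 bp.

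Of 20 genes of copper homeostasis, 4 (20.0%) had a peak, beside 11.8% of all protein-coding genes. Here too the share carries no test. Only 2 of these 4 peaks were in the deposited adjustment, and 0 were called in either direction. Of the 1311 adjusted peaks, 1.98% were called higher and 0.0763% lower. The median change of the 4 peaks was 0.175, against -0.46 over all peaks. Their smallest p-value in the authors' deposited table was 0.458. YSL3, a transporter of metal chelates, had 34.5 reads under deficiency and 30.3 with sufficient Fe in the authors' deposited table (change 0.19, FDR 0.775). CCS, a copper chaperone of superoxide dismutase, had 11.5 and 10.3 reads in the authors' deposited table (change 0.16, p = 0.88). FSD1, the Fe superoxide dismutase that is known to replace a copper enzyme when copper is low, had 7.36 and 5.21 reads (change 0.50, p = 0.458 in the authors' deposited table). PAA2, a copper pump of thylakoids, had 17.0 and 20.5 reads in the authors' deposited table (change -0.27, FDR 0.621), and its sign turned relative to the median peak, to 0.19. The CCS and PAA2 peaks did not overlap these genes, and their midpoints were nearer to other genes. SPL7, AT1G71200, COPT1 to COPT6, YSL2, CCH, ATX1, CSD1, CSD2, HMA5, RAN1 and PAA1 had no peak within 1500 bp.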

How the data were processed

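The tools listed, per the submitters' processing notes, were MACS2 and DiffBind without versions, bedtools 2.26.0, Picard 2.4.1, SAMtools 1.3.1, Bowtie 1.2.2 and Trimmomatic 0.33, on the TAIR10 build. Their settings, the normalisation between libraries and any pooling for peak calling are not given in the sources used. The authors deposited 1 table of peaks with concentrations read here as log2 of mean normalised reads: the first equals the log2 mean of both conditions within 0.00931. The deposited log2 fold equals sufficiency minus deficiency to within 0.01 and was turned to deficiency minus sufficiency. The deposited p-value and FDR are the authors' own. Over 1311 peaks this FDR equals a Benjamini-Hochberg adjustment to within 0.489%, and for the other 1055 it is 1.

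Genes came from NCBI RefSeq (TAIR10.1), used for names and neighbours, and all list genes were found by locus. Peak coordinates are as deposited. Intervals and recentred p-values (Python 3.11.15, SciPy 1.17.1) use the standard error implied by the deposited p-value under a normal approximation. For changes under 0.2, as at ZIP5 and FRO5, it is the median over 100 peaks of like signal. Recentring was tested on simulated data. No model was fitted to libraries, whose depth is unknown. No genome or promoter sequence was used here, so the planned motif and protein comparisons were not run.

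Members and lists were chosen with earlier results of these data known. Genes named are the members, list genes, the 2 neighbouring peaks on either side and the 5 most alike peaks.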

Additional observations from a re-analysis of the deposited data

How the results depend on the processing

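Of 52 alternative values over 13 results, 29 kept their direction and side of the threshold, or a similar count. Another 21 moved and 2 reversed. A fall from 3 to 2 genes with a peak was taken as a similar count. No change of ZIP3, ZIP5 or FRO5 passed the threshold under any alternative run. At ZIP3 and FRO5, outside the deposited adjustment, FDR thresholds of 0.01 and 0.1 could not have altered this. Their recentred changes had no FDR, nor had that of ZIP5 on peaks of like signal. Adjusted over all peaks by Benjamini-Hochberg, ZIP3 gave 0.312 and FRO5 0.999. Recentring turned the sign of ZIP5, to 0.33 on the median peak and 0.40 on peaks of like signal. Recentring on the median peak, which adds the same amount to every change, called 63 peaks as higher and 0 as lower, where the deposited values call 26 and 1. A deposited FDR of 0.01 gave 0 lower and 0.1 gave 6. In reads per kilobase the mean level over the median peak was 1.07 for ZIP3, 0.968 for ZIP5 and 1.06 for FRO5, in place of 0.768, 1.26 and 0.737 in reads per peak.

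The distance from the gene decided which genes counted as near a peak. With 1000 bp, 2 of the 3 genes kept a peak, ZIP3 being lost, and copper genes numbered 2. With 3000 bp, zinc genes numbered 7. When the peak had to overlap the gene, 0 of ZIP3, ZIP5 and FRO5 remained, and 2 genes of each of the ZIP, FRO, zinc and copper lists. Within 500 bp, a distance chosen after seeing the data, 1 of the 3 genes remained, with 3 ZIP, 2 FRO, 2 zinc and 2 copper genes. For these distances and for overlap, the share of all protein-coding genes with a peak is not given here. Whether the list counts moved with that share was therefore not tested. Among peaks in the deposited FDR adjustment, 1 of the 3 genes (ZIP5) and 2 copper genes had a peak. No paired analysis was possible because the table holds only the mean of each condition, and leaving out replicates was not run for the same reason.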
